A study of Mus musculus with 2 samples.

Results

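The cells described here are those of a mouse culture of myeloid-derived suppressor cells (MDSC) that were high in the primary granule transcripts Mpo, Elane and Prtn3. They were chosen on their measured counts. Among barcodes with at least 1000 UMIs (tags that each mark 1 captured RNA molecule) and at most 10% mitochondrial UMIs, such a cell had at least 20 UMIs of Mpo, Elane and Prtn3 together per 10,000 UMIs, fewer than 20 of the secondary granule genes Ltf and Ngp, and fewer than 20 of the basophil genes Mcpt8 and Prss34. The rule found 89 of 9621 cells in the DMSO library and 76 of 11414 in the dabrafenib (DAB) library, 165 of 21035 in all. They are called members below.

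Marrow of C57BL/6 females, 10 weeks old, was cultured for 4 days in GM-CSF and IL6, both at 50 ng/mL, to give MDSCs. Dabrafenib, a BRAF inhibitor used against melanoma, was present at 1.5 µmol/L in the DAB culture, and the control culture received the vehicle DMSO. Each condition had 1 library (10x Genomics 5′ chemistry), and how many mice it drew on was not given in the sources used. No difference between the libraries could therefore be tested, and every interval below is a 95% interval that covers counting error only.

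Neutrophil granules are filled in an order. Promyelocytes make myeloperoxidase (Mpo) and the serine proteases neutrophil elastase (Elane), proteinase 3 (Prtn3) and cathepsin G (Ctsg), and later stages switch to secondary granule proteins such as lactoferrin (Ltf). The transcription factors C/EBPα (Cebpa), C/EBPε (Cebpe) and GFI1 favor the granulocyte path, whereas IRF8 favors monocytes and dendritic cells, and early progenitors that can still enter either path also carry primary granule transcripts. When the kinase GCN2 is active, translation of the factor ATF4 increases, and ATF4 drives genes of amino acid synthesis, amino acid import and tRNA charging.

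In GENCODE M21 (GRCm38), Prtn3 lies at chr10:79874476-79883174 and Elane 3.07 kb further on at chr10:79886247-79888215, both on the plus strand. Mpo lies at chr11:87793581-87804413 (plus), Ctsg at chr14:56099881-56102574 (minus) and Ms4a3 at chr19:11629496-11640851 (minus). The promoter sequences of the 3 genes that chose the cells are shown, from RefSeq windows of 250 bases before to 50 after the start (GRCm38.p6), because each holds the letters GAGGAAGT, of the kind that ETS factors such as PU.1 bind. These letters were picked after the sequences were seen. Searched on both strands, they occur in 3.69% of the 27025 genes with a window, and in 1 of the 11 other primary granule genes with a window (Ctsc). Each sequence stops before the first annotated exon base in its window, and capitals mark the match, which starts at -224 in Mpo, -85 in Elane and -95 in Prtn3, counted from the RefSeq start. The stretches are chr11:87793534-87793580, chr10:79886062-79886246 and chr10:79879417-79879613, all on the plus strand. The Prtn3 stretch lies inside the GENCODE M21 span of that gene given above, because RefSeq places its start further on.
Mpo: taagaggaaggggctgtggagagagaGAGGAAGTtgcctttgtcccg
Elane: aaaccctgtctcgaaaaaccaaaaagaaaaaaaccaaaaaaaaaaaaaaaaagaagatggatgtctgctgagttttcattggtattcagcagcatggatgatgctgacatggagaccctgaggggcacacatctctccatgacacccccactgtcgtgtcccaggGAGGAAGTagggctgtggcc
Prtn3: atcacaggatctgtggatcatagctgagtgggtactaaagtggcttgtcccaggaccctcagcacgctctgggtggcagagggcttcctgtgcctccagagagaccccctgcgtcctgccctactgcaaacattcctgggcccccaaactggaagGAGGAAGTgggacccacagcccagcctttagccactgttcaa

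Members were rare and deeply sampled. They made up 0.925% of DMSO cells (exact binomial interval 0.744 to 1.14%) and 0.666% of DAB cells (0.525 to 0.833%), a log2 ratio of shares, DAB over DMSO, of -0.47 (-0.91 to -0.03). The interval took in 0 with doublets removed (-0.41, -0.86 to 0.04), with a score limit of 50 (-0.40, -1.15 to 0.35) and without members rich in monocyte and MHC class II genes (-0.27, -0.73 to 0.20), and the ratio was -0.83 (-1.17 to -0.49) without the limit on Ltf and Ngp. This order turned when members with a UMI of the monocyte genes Irf8 or Ccr2 were left out: 31 DMSO and 68 DAB cells then remained, with a log2 ratio of 0.89 (0.28 to 1.50). Both of those genes were also lower in the other DAB cells, with log2 ratios of -1.07 for Irf8 and -1.81 for Ccr2. The median depth of members was 19342 UMIs in DMSO and 27882.5 in DAB, against 8259.5 and 10495.5 in the other kept cells, and their UMIs summed to 1701952 and 2067469. The part of this depth gap in the share was not tested.

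The score had no gap at its limit. The 3 lowest DMSO members stood at 20.04, 20.09 and 20.11 per 10,000 UMIs, and the 3 DMSO cells just outside at 19.89, 19.82 and 19.24. In DAB the values were 20.54, 20.71 and 20.80 inside and 19.90, 19.20 and 19.15 outside. The median score was 35.3 in DMSO and 39.0 in DAB, with highest values of 407 and 230. Another 80 DMSO and 37 DAB cells passed the protease limit but carried Ltf and Ngp, and 1 DAB cell was left out by the basophil genes. The libraries had 152 barcode strings in common. Of these, 1 belonged to a DMSO member and 3 to DAB members, and none to a member in both.

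Most members did not hold all 3 transcripts that chose them. Prtn3 had a UMI in 89 DMSO and 74 DAB members and Elane in 81 and 75, whereas Mpo, the peroxidase of the primary granule, had none in 55 of 89 DMSO and 42 of 76 DAB members. Prtn3 was the most abundant of the 3 in 62 DMSO and 57 DAB members, Elane in 24 and 16, and Mpo in 3 and 2. Summed over members, Mpo stood at 455 CPM (counts of a gene per 1000000 UMIs) in DMSO and 500 in DAB, Elane at 2865 and 2117, and Prtn3 at 3115 and 2888. A single cell held 17.6% of the Mpo UMIs in DMSO, and a single cell 17.1% in DAB. These values describe how the cells were chosen.

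**Figure D1:**
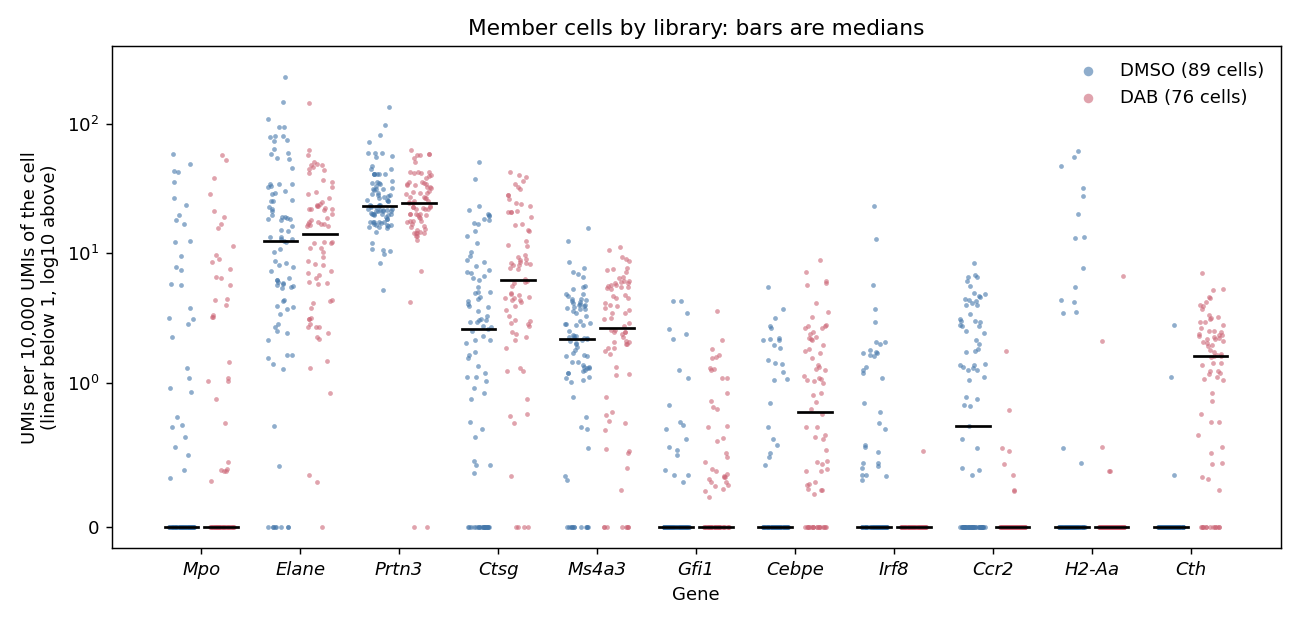
Each point is 1 member (89 DMSO, 76 DAB). The y axis gives UMIs per 10,000 UMIs of that cell for the gene on the x axis, linear below 1 and log10 above, and bars are medians. The Mpo median is 0 in both libraries, Irf8 has a UMI in 33 DMSO cells and 1 DAB cell, and Cth in 3 and 63.

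The markers outside the rule were abundant in members. Ctsg summed to 651 CPM (exact Poisson interval 613 to 690) in DMSO members and 1174 (1128 to 1222) in DAB members, against 12.8 and 25.9 CPM in the other kept cells. Ms4a3, a membrane protein of granulocyte and monocyte progenitors, stood at 294 CPM (269 to 321) and 387 (361 to 415), against 23.2 and 23.0. Of the members, 68 of 89 (DMSO) and 72 of 76 (DAB) held a Ctsg UMI, and 77 and 68 an Ms4a3 UMI. B cells (105 in DMSO, 178 in DAB), which should lack these genes and so measure free RNA, had a Ctsg UMI in 0 and 3 cells and an Ms4a3 UMI in 1 and 2, at median depths of 4035 and 5418.5 UMIs. With each cell thinned to 1500 UMIs, Ctsg was seen in 41.6% of DMSO members (31.2 to 52.5) and 59.2% of DAB members (47.3 to 70.4), and in no B cell of either library.

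The label of granulocyte progenitor held for many members and not for all. Ctsg and Ms4a3 were both present in 64 DMSO and 65 DAB members, and both missing in 8 and 1. Gfi1 or Cebpe, the granulocyte factors, had a UMI without Irf8 or Ccr2 in 19 of 89 DMSO members and 59 of 76 DAB members. The reverse, Irf8 or Ccr2 without Gfi1 or Cebpe, was seen in 44 DMSO members and 1 DAB member, both kinds of gene in 14 and 7, and neither kind in 12 and 9. These and the other counts of cells with a UMI are at full depth, which was greater in DAB. With cells thinned to 1500 UMIs, Gfi1 was seen in 4.49% of DMSO and 5.26% of DAB members, against 0.464% and 0.501% of the other kept cells and 4.95% and 1.15% of B cells, while Cebpe was seen in 4.49% and 22.4% (B cells 0.990% and 1.15%), Irf8 in 6.74% and 0% and Ccr2 in 22.5% and 0%. MHC class II genes reached 10 per 10,000 UMIs in 12 DMSO members, of which 6 had no UMI of Ctsg or Ms4a3, and in 1 DAB member. The members are therefore named by their proteases below, and the DMSO set in particular mixed granulocyte and monocyte transcripts.

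The genes that most set members apart from other cells are given as a description, since the same cells were chosen on their counts. By the lower of the 2 libraries' log2 ratios over other kept cells, Ctsg led at 5.50, followed by Myl10, a myosin light chain, at 3.75, Plppr3 at 3.67, Ms4a3 at 3.66, Plac8 at 2.85 and the surface glycoprotein Thy1 at 2.60. The next were Gm26917 at 2.28, the coagulation factor subunit F13a1 at 2.16, Tex2 at 2.06 and Gstm1 at 2.04. Rasgrp2, H2-Q7, Nedd4, Stfa1 and Srpk1 completed the 15 leading genes at 1.94, 1.91, 1.86, 1.82 and 1.78. Of the 15, 4 belong to the primary granule list. Not all of them set members apart from B cells. H2-Q7 stood at 459 and 310 CPM in B cells against 161 and 122 in members, and Plac8 at 394 and 631 against 728 and 602. In DMSO members, 1 cell held 41.35% of the Stfa1 UMIs, which lay in 13 cells, and 1 cell held 35.14% of the Tex2 UMIs. Myl10 was present in 73 of 89 DMSO and 73 of 76 DAB members, at 418 and 496 CPM.

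For the comparison of the libraries, UMIs were summed over members, and a gene was taken as past the fold where its log2 ratio, DAB over DMSO, was at least 0.5 in size with an interval that left out 0. Of 7240 genes with at least 50 UMIs in members, 1027 were past the fold as higher in DAB (14.2%) and 1281 as lower (17.7%). In the other kept cells 780 of these genes were higher (10.8%) and 755 lower (10.4%). Counts of list genes past the fold, given below, are to be read against these shares, above all in short lists. They take in only list genes with at least 50 UMIs in members, which are called measured. The median log2 ratio over all 7240 genes was -0.04 in members and 0.01 in the other cells.

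The 13 primary granule genes outside the rule were divided, with 5 past the fold as higher, 3 as lower and a median of 0.22. Ctsg was higher in DAB members (log2 0.85, 0.75 to 0.95), as were Prss57, a serine protease of the same granule (84.6 to 143 CPM, log2 0.75), and Cd63, a granule membrane protein (183 to 422 CPM, log2 1.20). Serpinb1a, which inhibits elastase, cathepsin G and proteinase 3, went from 171 to 435 CPM (log2 1.35, 1.15 to 1.54) and, thinned, was seen in 16 of 89 DMSO and 32 of 76 DAB members. The ratio of Serpinb1a was 0.45 at a score limit of 50 and 0.24 with equal weight of the score bands, and that of Prss57 was 0.02 (-0.36 to 0.41) without members that had Irf8 or Ccr2. Thinned, Prss57 was seen in 14.6% of DMSO and 10.5% of DAB members, the other order from its CPM. Lyz2, lysozyme, had the largest ratio (101 to 1140 CPM, log2 3.50), but 29.2% of its DAB UMIs lay in 1 cell, and in B cells, the measure of free RNA, it went from 17.3 to 278 CPM. Its ratio was 1.51 without the limit on Ltf and Ngp. On the lower side were Ctsc, which activates the granule proteases (210 to 67.2 CPM, log2 -1.65), Cst7, an inhibitor of cathepsins (220 to 150 CPM, log2 -0.56), and Fcnb (34.1 to 18.4 CPM, log2 -0.89). The ratio of Fcnb was -0.17 (-0.64 to 0.30) with a score limit of 10, and that of Cst7 -0.38 with equal weight of the score bands, both no longer past the fold. Without the limit on Ltf and Ngp, Fcnb stood at -2.18 (-2.51 to -1.87).

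Secondary granule genes other than Ltf and Ngp, which the rule limited, summed to 4766 CPM in DMSO and 6798 in DAB members, against 786 and 1111 in B cells. Chil3 had a UMI in 15.2% and 13.5% of B cells and in 52.8% and 67.1% of members. Of 12 measured, 6 were higher and 3 lower in DAB, with a median of 0.52 against -0.41 in the other cells. The order of the sums turned without members that had Irf8 or Ccr2, at 8217 CPM in DMSO and 7243 in DAB. Chil3 then stood at 6259 and 4834 CPM. Members with either gene summed to 3260.5 CPM in DMSO (58 cells) and 3977 in DAB (8 cells). Lcn2, a siderophore binder, summed to 380 CPM over DMSO members and 1066 over DAB members (log2 1.49, 1.36 to 1.62) and Padi4, which citrullinates histones, at 109 and 337 (log2 1.63). Cd177, a neutrophil surface protein, went from 35.8 to 148 CPM (log2 2.05). Without the limit on Ltf and Ngp the ratio of Cd177 turned to -0.64 and that of Lcn2 was 0.02 (-0.04 to 0.09), and at a score limit of 50 Lcn2 stood at 0.73. Hp, haptoglobin, was lower (334 to 148 CPM, log2 -1.18). Chil3, a chitinase-like protein, was the most abundant at 3353 and 4487 CPM but had a log2 ratio of 0.42, which was -0.78 at a score limit of 50 and -0.28 without the limit on Ltf and Ngp. It was uneven: 46 DMSO and 29 DAB members had 0 or 1 of its UMIs. Late genes were scarce, with Camp at 17.6 and 22.3 CPM and Ly6g present in 2 and 11 members. The log2 ratio of Camp, 0.34 (-0.36 to 1.05), turned to -3.00 (-3.14 to -2.86) without the limit on Ltf and Ngp.

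Most transcription factors listed for the granulocyte path were higher in DAB members. The ratios of Cebpe and Gfi1 depended on the setting, however, and Cebpa was not past the fold. Of 11 measured factors, 7 were higher and 1 lower, with a median of 0.60 against 0.45 in the other cells. Cebpe, which switches on secondary granule genes, summed to 54.6 CPM over DMSO members and 145 over DAB members (log2 1.41, 1.07 to 1.76). Its ratio was 0.18 (-0.26 to 0.63) with a score limit of 50, 0.11 (-0.07 to 0.28) without the limit on Ltf and Ngp and 0.31 (-0.08 to 0.73) without members that had Irf8 or Ccr2, each no longer past the fold. Myb, a factor of dividing progenitors, stood at 48.2 and 99.6 CPM (log2 1.05) and Myc, a driver of growth, at 74.0 and 188 (log2 1.35). Gfi1 was higher by log2 0.54 (0.04 to 1.06), a ratio that turned to -0.72 without members that had Irf8 or Ccr2, to -0.22 with a score limit of 50 and to -0.15 with equal weight of the score bands. Cebpa had a log2 ratio of 0.26 (-0.09 to 0.62), and Runx1 was lower (283 to 179 CPM, log2 -0.66, but -0.34 with a score limit of 10). Among early progenitor genes, 2 of 8 were higher and 1 lower, against 14.2% and 17.7% of all genes. Kit, the stem cell factor receptor, stood at 7.05 and 23.7 CPM (log2 1.75, but 0.41 without members that had Irf8 or Ccr2), and Cd34 at 25.3 and 7.26 (log2 -1.80).

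The monocyte side of these cells was far smaller in DAB. Of 8 monocyte genes 7 were lower and 1 higher, with a median of -2.26 against -0.96 in the other cells. The genes spread from -6.91 to 0.92. The median stayed below 0 but its size depended on the setting. It was -1.07 and -1.30 with score limits of 50 and 10 and -1.26 without members rich in monocyte and MHC class II genes. It was -1.21 with at least 20 or at least 200 UMIs per gene, -1.04 with at least 1, and -3.64 with doublets removed. Without members that had Irf8 or Ccr2 it was -0.94, but that setting puts these 2 lowered genes at 0 in both libraries. The -0.94 therefore describes the other genes only. Irf8 had 99 UMIs in 33 DMSO members and 1 UMI in 1 DAB member, or 58.2 CPM (47.3 to 70.8) and 0.484 CPM (0.0123 to 2.69). Ccr2, the chemokine receptor by which monocytes leave marrow, stood at 165 and 8.22 CPM (log2 -4.33, -5.13 to -3.62), with a UMI in 50 and 8 cells. Ctss, a lysosomal protease of antigen presentation (148 CPM in DMSO, log2 -3.30), Ly86 (35.8 to 1.45, log2 -4.63) and Csf1r, the M-CSF receptor (72.3 to 42.6, log2 -0.76), were lower too, as was F13a1 (518 to 284, log2 -0.87). With a score limit of 10 the ratio of F13a1 was -0.04 (-0.14 to 0.07), and without members that had Irf8 or Ccr2 that of Csf1r was -0.12 (-0.83 to 0.64). The exception was Fn1, of which 91.3% of the DMSO and 56.6% of the DAB UMIs lay in 1 cell each. The list as a whole summed to 1123 CPM over DMSO members and 428 over DAB members.

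MHC class II genes followed, with 5 of 5 lower and a median of -1.76, against -0.20 in the other cells. H2-Aa stood at 311 and 14.5 CPM (log2 -4.42) and H2-Eb1 at 177 and 6.77 (log2 -4.71), but they had a UMI in only 16 and 15 DMSO members. Without members rich in monocyte and MHC class II genes, H2-Aa stood at -1.89 (-2.54 to -1.26) and H2-Eb1 at -1.95 (-2.94 to -1.04), and with a score limit of 10 at -6.42 and -6.96. Left without members that carried Irf8 or Ccr2, the list's median was -0.36, and H2-Ab1 turned from -1.76 to 0.27. Macrophage genes were lower in 4 of 4, led in abundance by Spp1, osteopontin (430 and 300 CPM, log2 -0.52), and C1qb and C1qc were at 0 in DMSO members. The macrophage list summed to 598 CPM in DMSO and 351 in DAB members, against 177 and 984 in B cells, so no level above free RNA is read in DAB members, where 39.3% of the sum lay in 1 cell. The part of cells with monocyte transcripts in the other ratios was not tested, apart from the values given without them.

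Markers of B, T and NK and erythroid cells were at or near 0. The 8 B cell genes summed to 12.3 CPM in DMSO and 10.2 in DAB members, against 3075.5 and 4169.9 in B cells, with 7 and 6 of the 8 at 0 and Cd79b the most abundant. T and NK cell genes summed to 9.99 and 1.45 CPM and erythroid genes to 1.18 and 0.484. Eosinophil genes summed to 2.94 and 98.2 CPM, and 92.6% of the DAB sum lay in 1 cell. Basophil and mast cell genes were not near 0. They summed to 105 and 93.8 CPM, against 63.3 and 236 in the other kept cells, and 30 DMSO and 25 DAB members had none of their UMIs. Cyp11a1, a steroid-making enzyme, held nearly all of it (103 and 82.7 CPM), 3 of the 8 genes were at 0 in each library, and the mast cell protease Cpa3 stood at 0.588 and 0.967 CPM. The part of these cells' transcripts in the other values was not tested.

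The levels of these genes changed along the score, which is given as a description because the score chose the cells. In DMSO, Ctsg stood at 45.3 CPM in cells at 10 to 20 per 10,000, just below the limit, and at 280, 1179 and 973 in the bands from 20, 50 and 100. In DAB it stood at 355, 647, 1758 and 1948 in the same bands. Irf8 in DMSO stood at 146 CPM below the limit, at 72.4, 29.96 and 54.1 in the bands from 20, 50 and 100, and at 0 in the 3 cells from 200. The monocyte list as a whole was more level, at 1209, 1185 and 912 CPM in these bands and 74.3 from 200, and F13a1 was highest in the band from 50 (493, 779 and 352 CPM). Cebpe in DMSO went from 7.24 to 18.6, 98.0 and 96.6, whereas in DAB it stood at 116, 161, 80.3 and 263 in the same bands. Of all members, 59 of the 89 DMSO and 49 of the 76 DAB members had a score under 50. The bands from 100 held 10 and 5 cells.

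**Figure D2:**
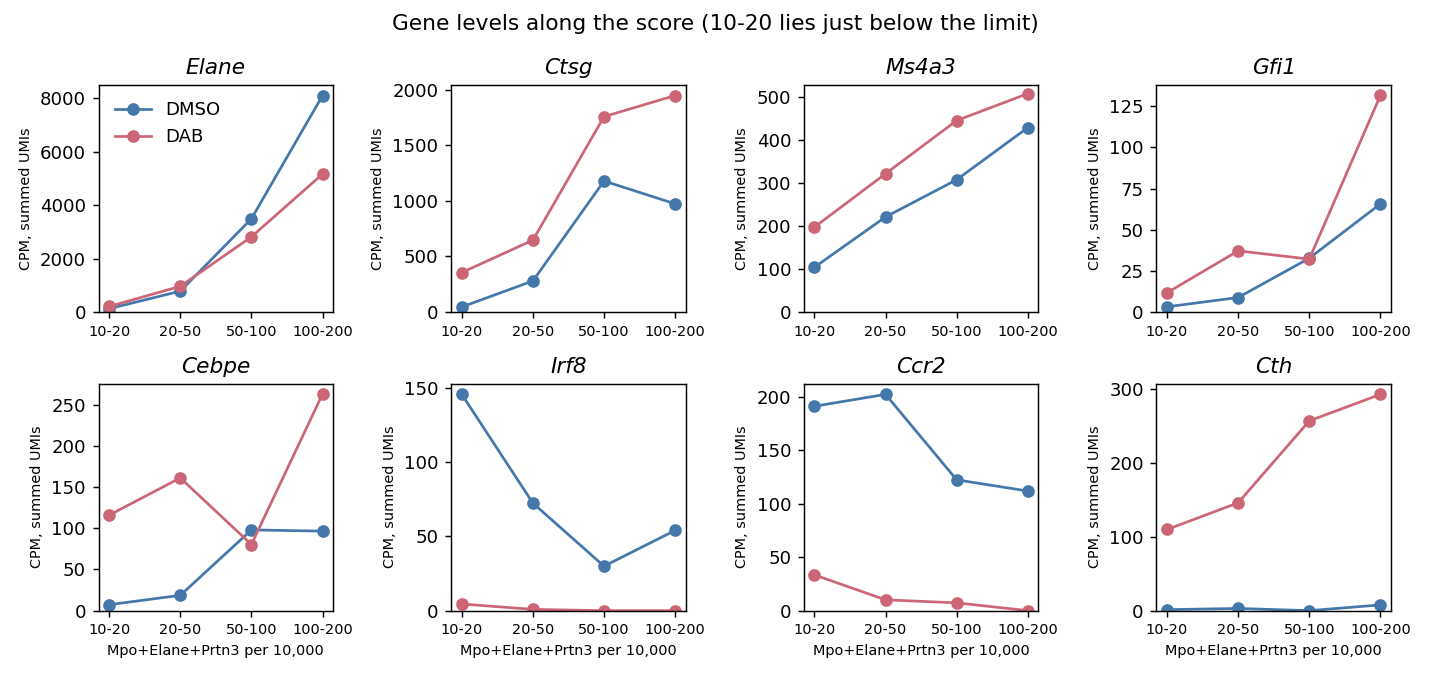
Each panel is 1 gene; the x axis gives the summed Mpo, Elane and Prtn3 UMIs per 10,000 in 4 bands and the y axis the summed CPM in the cells of a band, for DMSO and DAB. The 10 to 20 band lies just below the limit; Ctsg is higher at 50 to 100 than at 20 to 50 in both libraries, Irf8 is near 0 in every DAB band, and Cth is near 0 in every DMSO band.

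Most genes of the amino acid response were higher in DAB members. Of 30 measured genes of a list of 34, 23 were past the fold as higher in DAB members and 1 as lower, with a median of 1.23. In the other cells 25 were higher and 1 lower with a median of 1.58, and 22 were higher in both. Per cell, the summed list had a median of 20.3 per 10,000 UMIs in DMSO (lowest 5.05, highest 44.3) and 42.7 in DAB (8.89 to 69.0). The sets overlapped, with 36 of 76 DAB members above the highest DMSO member and 73 above the DMSO median. Cells of 1 library are not replicates. No such count is given for the other kept cells, so it is not read as particular to members.

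Enzymes of amino acid synthesis were among them. Cth, cystathionine gamma-lyase, which makes cysteine, stood at 4.11 CPM (1.65 to 8.47) in DMSO and 198 (180 to 218) in DAB members, with a UMI in 3 and 63 cells, or 0% and 28.9% of members when thinned. Psph, Phgdh and Psat1, the enzymes of serine synthesis, stood at 24.7 and 200 CPM (log2 3.02), 173 and 436 (log2 1.33), and 67.6 and 223 (log2 1.72). Asns, asparagine synthetase, stood at 69.9 and 243 CPM (log2 1.80, 1.51 to 2.10), and Shmt2 and Mthfd2, of mitochondrial one-carbon metabolism, had log2 ratios of 1.60 and 1.11. Serine, cysteine and asparagine synthesis were thus each represented by higher transcripts in DAB.

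Transport and regulatory genes were higher as well. Slc7a3, a carrier of cationic amino acids, had 1 UMI in DMSO and 98 in 42 DAB members (log2 6.33, 3.82 to 11.65). Slc7a5, which imports large neutral amino acids, stood at 59.9 and 160 CPM (log2 1.41), and Slc7a11, the cystine importer, at 20.6 and 48.4 (log2 1.23). Atf4 itself stood at 202 and 347 CPM (log2 0.79, 0.60 to 0.97), Atf5 at 24.1 and 110 (log2 2.19), and Trib3, a pseudokinase induced by ATF4, at 32.9 and 137 (log2 2.06). Chac1, which degrades glutathione, stood at 11.2 and 56.1 CPM (log2 2.33), and Stc2, a secreted glycoprotein, at 22.3 and 208 (log2 3.22). Nupr1 was lower (88.7 to 59.0 CPM, log2 -0.59, but -0.20 without the limit on Ltf and Ngp), Pycr1 had a log2 ratio of 0.02 in members and 1.54 in the other cells, and Ddit4 and Ddit3 were not past the fold. Within each library the summed list was at a like level with and without Irf8 or Ccr2. Members with either gene summed to 2236 CPM in DMSO (58 cells) and 4499 in DAB (only 8 cells). Those without summed to 2171 (31 cells) and 4426 (68 cells). Single genes were not at a like level. DMSO members with and without Irf8 or Ccr2 had Cth at 1.69 and 9.67 CPM, Psph at 16.0 and 44.5, Phgdh at 141 and 248 and Asns at 59.1 and 94.8.

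**Figure D3:**
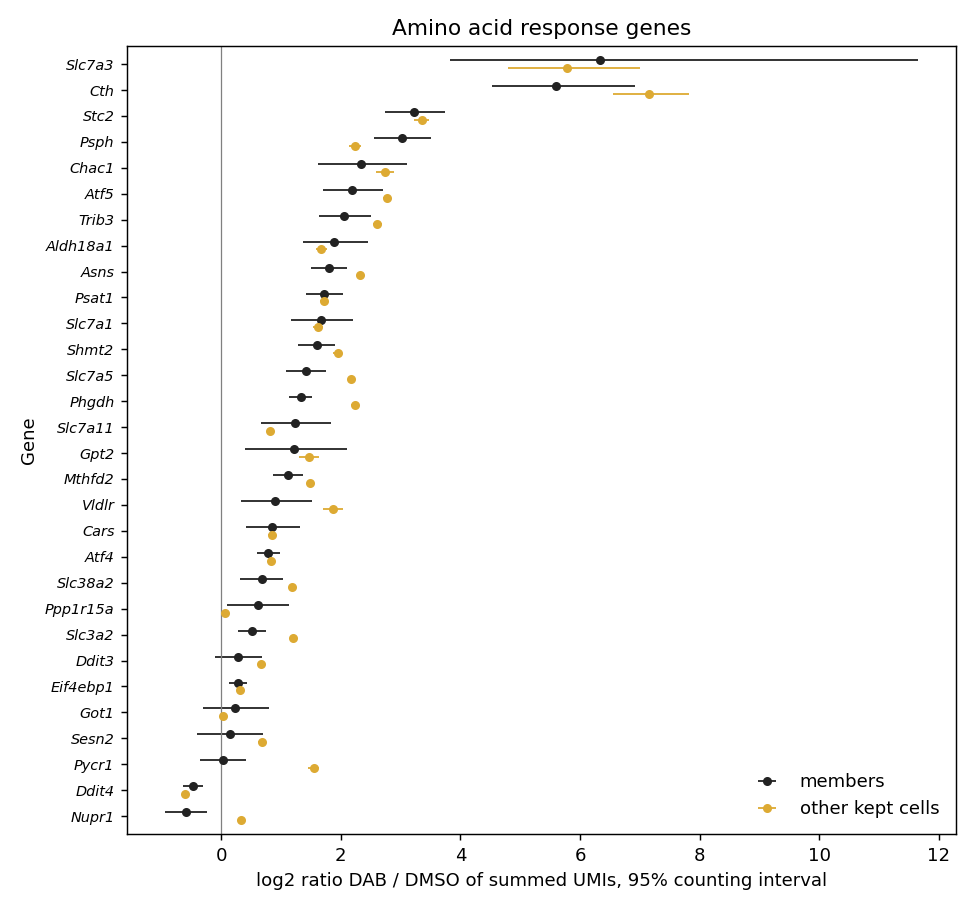
The x axis gives the log2 ratio DAB over DMSO of summed UMIs with 95% counting intervals for the 30 amino acid response genes on the y axis, in members and in the other kept cells. Of the 30, 23 are past the fold as higher in members, and Ddit4 and Nupr1 lie below 0 in members.

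The promoters of Chac1 and Slc7a11 are shown because both genes were higher in DAB and their windows hold TGATGNAA, letters of the kind found in amino acid response elements, also picked after the sequences were seen. On both strands, 10 of 29 response genes with a window hold it (34.5%), as do 5 of 13 tRNA synthetase genes (38.5%) and 2 of 11 primary granule genes (18.2%), against 4.51% of all 27025. Capitals mark the matches, at -193 in Chac1 (reverse complement) and at -66 and -47 (reverse complement) in Slc7a11. The stretches are chr2:119350992-119351111 (plus) and chr3:50443615-50443733 (minus) in GRCm38.p6, and a match is not evidence of binding.
Chac1: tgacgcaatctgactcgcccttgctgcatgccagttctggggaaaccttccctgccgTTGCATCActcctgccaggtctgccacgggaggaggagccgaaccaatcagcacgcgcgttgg
Slc7a11: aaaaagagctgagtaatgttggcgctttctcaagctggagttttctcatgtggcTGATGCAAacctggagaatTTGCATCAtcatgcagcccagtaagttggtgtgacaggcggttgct

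Transfer RNA synthetases, which charge tRNAs with amino acids, were higher as well. Of 19 measured, 15 were higher and none lower, with a median of 0.86, and 15 were higher in the other cells too. Iars stood at 26.4 and 89.5 CPM (log2 1.76, 1.28 to 2.26), Rars at 41.1 and 111 (log2 1.44) and Gars at 116 and 269 (log2 1.22). Vars and Dars had log2 ratios of 0.00 and -0.05. The unfolded protein list, which shares upstream signals with this response, had 2 of 22 higher and 2 lower with a median of -0.09. Its chaperone Hspa5 had a log2 ratio of -0.04 (-0.15 to 0.07), and Xbp1 was lower (583 to 412 CPM, log2 -0.50), at the edge of the fold and under it in 8 other settings, down to -0.17 with a score limit of 50.

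Genes of ribosome biogenesis were higher in 18 of 20, with none lower and a median of 1.17 against 0.82 in the other cells. Nop56, of the box C/D particles that modify ribosomal RNA, stood at 37.0 and 115 CPM (log2 1.63), Dkc1, a pseudouridine synthase, at 19.4 and 62.9 (log2 1.70) and Ncl, nucleolin, at 263 and 513 (log2 0.96). Npm1, the most abundant, had a log2 ratio of -0.04. Genes of the ribosome itself did not follow: of 77 cytosolic ribosomal protein genes none was past the fold, with a median of 0.01.

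Mitotic transcripts were frequent in members of both libraries. With cells thinned to 1500 UMIs, 39.3% of DMSO members (29.1 to 50.3) and 43.4% of DAB members (32.1 to 55.3) had at least 3 UMIs of 22 mitotic genes, against 9.22% and 6.79% of the other kept cells, 10.5% and 16.2% of Ltf/Ngp-high granulocytes, and 5.94% and 1.15% of B cells. Without thinning the shares in members were 84.3% and 81.6%. Under the rule as given, mitotic genes were near level between the libraries, with 1 higher, 1 lower and a median of -0.04. In the other DAB cells 8 of 22 were lower (median -0.45). The median in members depended on the setting. It was -0.18 without the limit on Ltf and Ngp, -0.26 with a score limit of 50, and lower still without members that had Irf8 or Ccr2. With doublets removed it was 0.03, as it was with at most 5% mitochondrial UMIs. Mki67 had a log2 ratio of 0.04 (-0.14 to 0.22) and Top2a of -0.03. The exceptions were Ccnb1, a mitotic cyclin (log2 0.60, but 0.32 without members that had Irf8 or Ccr2), and Hmmr (log2 -0.62, but -0.49 as a mean over cells).

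DNA replication genes were mostly higher in DAB members. Of 19, 12 were higher in DAB members and none lower, with a median of 0.66 against 0.06 in the other cells. Mcm2, of the replicative helicase, stood at 31.7 and 83.2 CPM (log2 1.39, 0.94 to 1.86), Tyms, which makes thymidylate, at 27.6 and 65.3 (log2 1.24) and Fen1, a flap nuclease, at 39.4 and 85.1 (log2 1.11). Mcm6, the most abundant, stood at 94.6 and 163 CPM (log2 0.79, but 0.45 without members that had Irf8 or Ccr2). With the 4 score bands weighted equally the list's median was 0.13 and the ratio of Fen1 0.24 (-0.18 to 0.66).

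**Figure D4:**
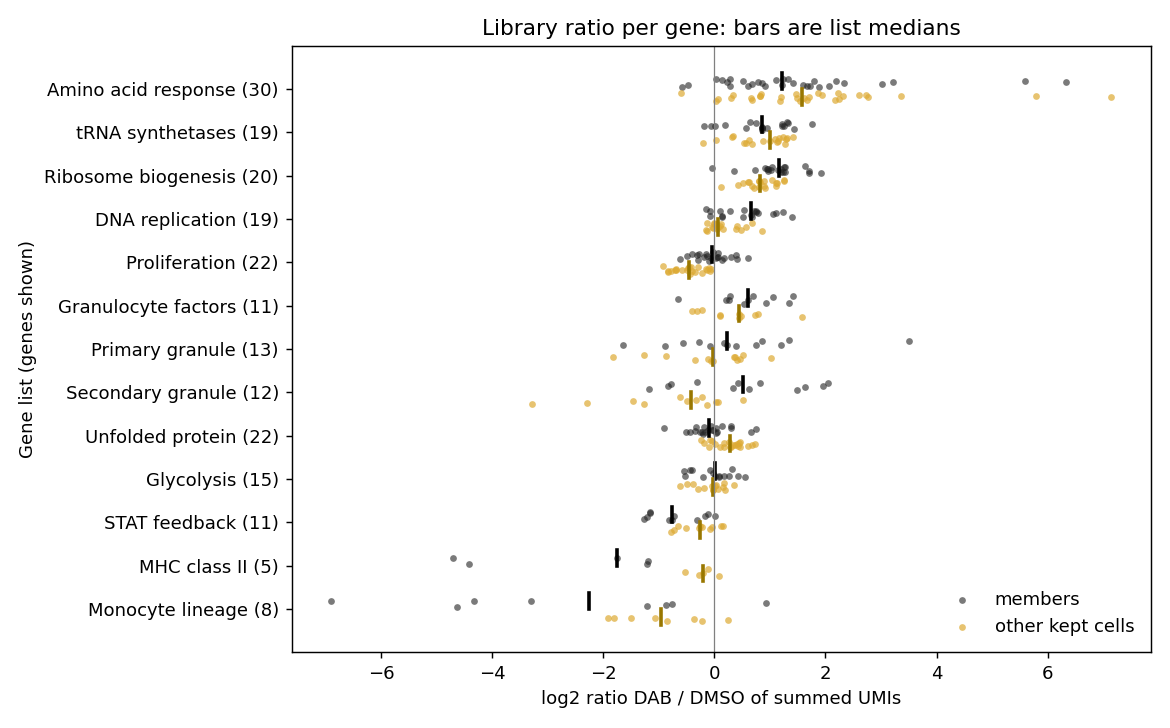
Each point is 1 gene of the list named on the y axis (the number in brackets is the genes shown), and the x axis gives its log2 ratio DAB over DMSO of summed UMIs; bars are list medians, for members and for the other kept cells. Amino acid response, tRNA synthetase and ribosome biogenesis medians lie above 0 in both, at 1.23, 0.86 and 1.17 in members, and monocyte and MHC class II medians lie at -2.26 and -1.76 in members.

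Cytokine signaling genes differed in both directions. Of 11 STAT target and feedback genes, 7 were lower in DAB members and none higher, with a median of -0.76 against -0.26 in the other cells. Socs3, the inhibitor induced by IL6, stood at 112 and 48.4 CPM (log2 -1.21, -1.58 to -0.86), Socs1 at 69.9 and 31.4 (log2 -1.15), Socs2 at 38.2 and 16.0 (log2 -1.26) and Cish at 170 and 103 (log2 -0.72, but -0.39 with a score limit of 10). Without members that had Irf8 or Ccr2 the ratios of Socs1 and Socs3 were -0.30 (-1.06 to 0.51) and -0.51 (-1.07 to 0.09), and with equal weight of the score bands that of Socs2 was -0.14. Pim1, the most abundant, had a log2 ratio of 0.02. Among 8 receptor genes 3 were higher and 3 lower: Csf2ra, a GM-CSF receptor chain, stood at 85.2 and 136 CPM (log2 0.68) and Csf3r, the G-CSF receptor, at 19.4 and 44.5 (log2 1.20, but -0.063 without members that had Irf8 or Ccr2). Of 9 ERK output genes 2 were higher and 1 lower, with a median of 0.02, against 14.2% higher and 17.7% lower over all genes. Among 8 immediate early genes 4 were lower and 1 higher, with Fos at 32.9 and 8.22 CPM.

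Genes that control proteases differed in both directions. Of 9 measured, 4 were higher and 4 lower, and 4 of the 9 (Ctsc, Cst7, Serpinb1a and Srgn) also belong to the primary granule list. Cstb, cystatin B, stood at 509 and 1210 CPM (log2 1.25), and the related Stfa1 at 183 and 1001 (log2 2.45), present in 13 DMSO and 37 DAB members. Of the DMSO UMIs of Stfa1, 41.35% lay in 1 cell. Its ratio was 3.51 with a score limit of 10 and 1.58 without the limit on Ltf and Ngp. Slpi, the secreted inhibitor of elastase, stood at 1452 and 855 CPM (log2 -0.77). Its ratio turned to 0.51 without members that had Irf8 or Ccr2, and to 0.14 with a score limit of 10.

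The remaining metabolic lists are read against the 14.2% of all genes past the fold as higher and the 17.7% as lower. Of 15 glycolysis genes 1 was higher and 2 lower (median 0.01), of 77 nuclear genes of oxidative phosphorylation 7 and 2 (median -0.07), of 13 mitochondrial genes 4 and 1 (median 0.20) and of 6 NADPH oxidase genes 2 and 1 (median 0.40). Interferon-stimulated genes were lower in 3 of 3 measured, from a list of 12. Of 10 mature neutrophil genes 3 were higher and 4 lower (median -0.29, against 0.31 in the other cells).

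Among genes past the fold, at 50 CPM or more in either library and with the same sign in members under and from a score of 100, the 10 highest ratios in DAB members were Prg2 (log2 7.21), Cth (5.59), Ccl4 (5.34), P2rx3 (4.67), Grb10 (4.49), Lyz2 (3.50), Stfa2 (3.45), Stc2 (3.22), Psph (3.02) and Cox6a2 (2.59). For 3 of them the DAB UMIs lay mostly in 1 cell, at 98.9% for Prg2, 71.6% for Ccl4 and 51.9% for Stfa2. The levels in DAB members were below those in DAB B cells for Stfa2 (51.3 and 231 CPM) and Ccl4 (71.6 and 81.4 CPM), so no level above free RNA is read for them. P2rx3, an ATP-gated channel, was by contrast spread over 60 DAB and 4 DMSO members (3.53 to 90.0 CPM), Grb10, an adaptor that restrains insulin signaling, over 49 and 5 (3.53 to 79.3 CPM), and Cox6a2, a subunit of cytochrome c oxidase, over 67 and 22 (39.4 to 237 CPM). The 10 lowest were Irf8 (-6.91), Clec10a (-6.81), Rcn3 (-5.30), E330020D12Rik (-5.27), Mgl2 (-5.12), Il4i1 (-4.90), Pkib (-4.84), Tnfrsf9 (-4.80), H2-Eb1 (-4.71) and H2-Aa (-4.42). Mgl2 and Clec10a, lectins of macrophages and dendritic cells, stood at 539 and 15.5 CPM and at 163 and 1.45, and Tnfrsf9, the receptor 4-1BB, at 565 and 20.3. Without members that had Irf8 or Ccr2, Mgl2 stood at 34.8 and 4.48 CPM, Clec10a at 9.67 and 0.56, and Tnfrsf9 at 31.0 and 17.4. All 20 had the same sign in the other kept cells.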

How the data were processed

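Single-cell RNA was measured in 1 DMSO and 1 DAB library. The authors ran Cell Ranger 7.0.0 (mm10), and the raw UMI counts they deposited (9855 and 11631 barcodes, 106792967 and 165506902 UMIs) were used. The submitters' processing notes also name R 4.1.2 and Seurat 4.3.0. Barcodes under 1000 UMIs (199 DMSO, 147 DAB) or over 10% mitochondrial UMIs (35, 70) were removed. Doublets were marked by a neighbor score on simulated pairs (741 and 1042 cells, of which 5 and 2 members) and kept, and their removal was an alternative. Counts were summed over members per library and scaled to CPM, with exact conditional binomial intervals on the ratio. The intervals were checked on simulated Poisson counts without spread between cells, so the check does not cover that spread. Shares have exact binomial intervals. The mitotic share, and where so stated the share of cells with a UMI of a gene, was taken after thinning each cell to 1500 UMIs, and other counts of cells are at full depth. The members and gene lists were chosen with earlier results of these data known. Named genes were the genes of the rule and its markers, genes of the lists, the 10 largest ratios in each direction (at least 50 CPM in either library, same sign below and from a score of 100), and the 15 genes highest over other cells (at least 100 CPM in both). Other cells served for comparison: B cells had Cd79a and Cd79b at 10 or more per 10,000 UMIs, and Ltf/Ngp-high granulocytes were 1629 DMSO and 689 DAB cells. Alternatives changed the limits of the rule, the cell filters, doublets, the gene minimum, the weighting and the thinning. Analyses used Python 3.11.15, numpy 2.4.6, scipy 1.17.1, pandas 2.3.3, scikit-learn 1.9.0 and matplotlib 3.10.9.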

Additional observations from a re-analysis of the deposited data

Results flagged for a closer look

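For 3 listed genes the members and the other kept cells differed between the libraries in opposite directions, past the fold in both, and the difference itself was not tested. Cd34, a surface protein of early progenitors, was lower in DAB members (25.3 to 7.26 CPM, log2 -1.80, -2.76 to -0.92) and higher in the other DAB cells (8.85 to 41.3 CPM, log2 2.22). Csf3r, the G-CSF receptor, was higher in DAB members (19.4 to 44.5 CPM, log2 1.20, 0.61 to 1.82) and lower in the other DAB cells (61.2 to 29.0 CPM, log2 -1.08). Slpi, a secreted elastase inhibitor, was lower in DAB members (1452 to 855 CPM, log2 -0.77, -0.85 to -0.68) and higher in the other DAB cells (686 to 1736 CPM, log2 1.34). Without members that had Irf8 or Ccr2, Slpi turned to 0.51, the direction of the other cells, and Csf3r to -0.063. Slpi was also at 0.14 with a score limit of 10. Over all 7240 genes, 28 were past the fold in opposite directions.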

How the results depend on the processing

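No paired analysis was possible because each condition had 1 library, and for the same reason no replicate could be left out. Across 20 settings, 5 of the 84 followed genes past the fold changed sign in at least 1, and 27 were no longer past the fold in at least 1 (14 without members with Irf8 or Ccr2, 11 with a score limit of 50). Some genes had no value in a setting, such as Irf8 and Kit with a score limit of 50, and these counts leave such cases out. Leaving out members with Irf8 or Ccr2, and leaving out barcodes found in both libraries, were chosen after seeing the data. Without members with Irf8 or Ccr2 the log2 share ratio turned to 0.89, Gfi1 to -0.72, H2-Ab1 to 0.27, Csf3r to -0.063 and Slpi to 0.51, list medians were 1.37 for ribosome biogenesis, -0.37 for proliferation and -0.36 for MHC class II, and the cycling share in DMSO was 51.6%. With a limit of 10 on the score, 1634 genes were higher in DAB, the ribosome biogenesis median was 1.47, Slpi was 0.14 and the DMSO cycling share 28.1%. With a limit of 50, the genes past the fold, higher in DAB, numbered 624 and the genes past the fold, lower in DAB, 582, the ribosome biogenesis median was 1.41 and Gfi1 was -0.22. Without the limit on Ltf and Ngp the ribosome biogenesis median was 1.41 and Cd177 was -0.64. Without members rich in monocyte and MHC class II genes the MHC class II median was -1.06. With 4 bands weighted equally the ribosome biogenesis median was 1.44, that of DNA replication 0.13 and Gfi1 -0.15. With at least 200 UMIs per gene, and so fewer genes, 419 were higher and 406 lower. The cycling share was 84.3% in DMSO and 81.6% in DAB without thinning, 62.9% and 67.1% with 1 UMI, and 28.1% in DMSO with 5. The causes were not tested where none is named. Members with few cells or UMIs limit every value: ratios of genes near 50 UMIs have wide intervals, and 8 of the 20 genes with the largest ratios had over 50% of their DAB UMIs in 1 cell.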
